A study of Mus musculus with 17 samples.

Results

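The genes described here are 10 components and targets of anti-Müllerian hormone (AMH) and bone morphogenetic protein (BMP) signalling, read by symbol from a table of 25198 genes measured in cultured mouse ovarian follicles. They are the ligand gene Amh, the receptor genes Amhr2, Bmpr1a, Bmpr1b and Bmpr2, the target genes Id1, Id2 and Id3, and the inhibitory SMAD genes Smad6 and Smad7. The follicles came from CD1 mice 16 days old and were antral after 8 days of growth in the encapsulated culture that the labels call eIVFG. Tyrphostin libraries came from follicles given Tyrphostin-AG1478, an inhibitor of the EGF receptor kinase, at 10 µM in DMSO together with hCG (human chorionic gonadotropin, which triggers ovulatory maturation) for 4 h. Control libraries carry the treatment label Control, and since 1 protocol text serves both groups, the labels leave unstated if Control follicles were given hCG or DMSO. Batch 1 held 6 Control and 3 Tyrphostin libraries and batch 2 held 5 Control and 3 Tyrphostin libraries. The Control library names fall into 5 sets, 2 in batch 1 and 3 in batch 2, and no label says whether libraries of a set share animals or cultures, so p-values measure only the spread between these 17 libraries.

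AMH is a hormone of the granulosa cells of growing follicles. It binds AMHR2, a type II receptor kinase, which like the BMP type II receptor BMPR2 pairs with type I receptors such as BMPR1A and BMPR1B, and the active complex phosphorylates SMAD1, SMAD5 and SMAD9. These SMADs enter the nucleus with SMAD4 and raise transcription of the ID genes, whose proteins bind E-protein transcription factors and keep them from DNA, and of Smad6 and Smad7, whose proteins block the receptors in return. In the ovary BMPs made by the oocyte, theca and granulosa cells act on granulosa cells and restrain luteinization.

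RefSeq start sites of build GRCm38.p6 were used for 7 of the 10 members, and the stretches below are shown because Id3 was the member called with the inhibitor and Id2 moved with Id3 between batches. Letters searched for in the 250 bases before each start, on both strands, were GGCGCC and CAGAC (SMAD elements), TGACG (the core of the cyclic AMP response element), TGANTCA (AP-1), GTGGGCG (EGR) and CANNTG (E-box). Each stretch has 30 bases and capitals mark the matched letters. Both windows lie inside the gene spans that GENCODE annotates. The Id3 window held 2 matches to CAGAC and 1 to TGACG, which overlaps the CAGAC farther from the start, at chr4:136143641-136143670 and chr4:136143742-136143771 on the plus strand.
Id3 CAGAC with TGACG: gctgtcctcggCGTCAGACcagcctaagga
Id3 CAGAC: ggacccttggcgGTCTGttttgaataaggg
The Id2 window held 1 match to GGCGCC and 1 to CANNTG, at chr12:25096306-25096335 and chr12:25096271-25096300 on the minus strand.
Id2 GGCGCC: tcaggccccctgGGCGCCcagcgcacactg
Id2 CANNTG: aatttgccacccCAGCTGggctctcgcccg
Among all 32851 windows of that length, 42.2% held CAGAC, 17.8% TGACG, 9.59% GGCGCC and 66.2% CANNTG. A match is a description of these letters and not a binding site.

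Libraries held 1820545 to 8291024 counts in Control and 3077632 to 7451417 in Tyrphostin. Control 6 had the lowest total, Control 7 had 0.175% of its counts in mitochondrially encoded genes against 1.74% to 2.83% in the other Control libraries, and Tyrphostin 5 had the highest level of theca and stroma markers. Of 7 granulosa markers 5 passed the filter on low counts, with Inha and Inhba highest, while Foxl2 reached at most 4.66 CPM and Wt1 at most 2.35 CPM. CPM is the count divided by the library total after TMM (trimmed mean of M values) scaling, in the usual unit. After a mean, ± gives the SD over 11 Control or 6 Tyrphostin libraries unless another n is given, and after a log2 fold change it gives the SE.

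In Control follicles the level per kilobase of exon was highest for Id3 and Id2 and close to 0 for the ligand. On the scale of CPM per kb, Id3 averaged 107 ± 39.6 and Id2 80.6 ± 51.9, followed by Bmpr2 at 15 ± 6.62, Bmpr1b at 8.09 ± 2.58, Id1 at 4.54 ± 2.37, Amhr2 at 3.77 ± 1.83, Bmpr1a at 2.63 ± 1.02 and Smad7 at 0.757 ± 0.198 (SD, n = 11 each). Smad6 and Amh were lowest, at 0.0518 ± 0.0733 and 0.0116 ± 0.0385 CPM per kb (SD, n = 11). Not all neighbours in this order were apart: Id3 exceeded Id2 in 8 of 11 Control libraries, Id1 exceeded Amhr2 in 7, Amhr2 exceeded Bmpr1a in 8 and Smad6 exceeded Amh in 4. Id2 exceeded Bmpr2, and Smad7 exceeded Smad6, in 11 of 11.

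**Figure D1:**
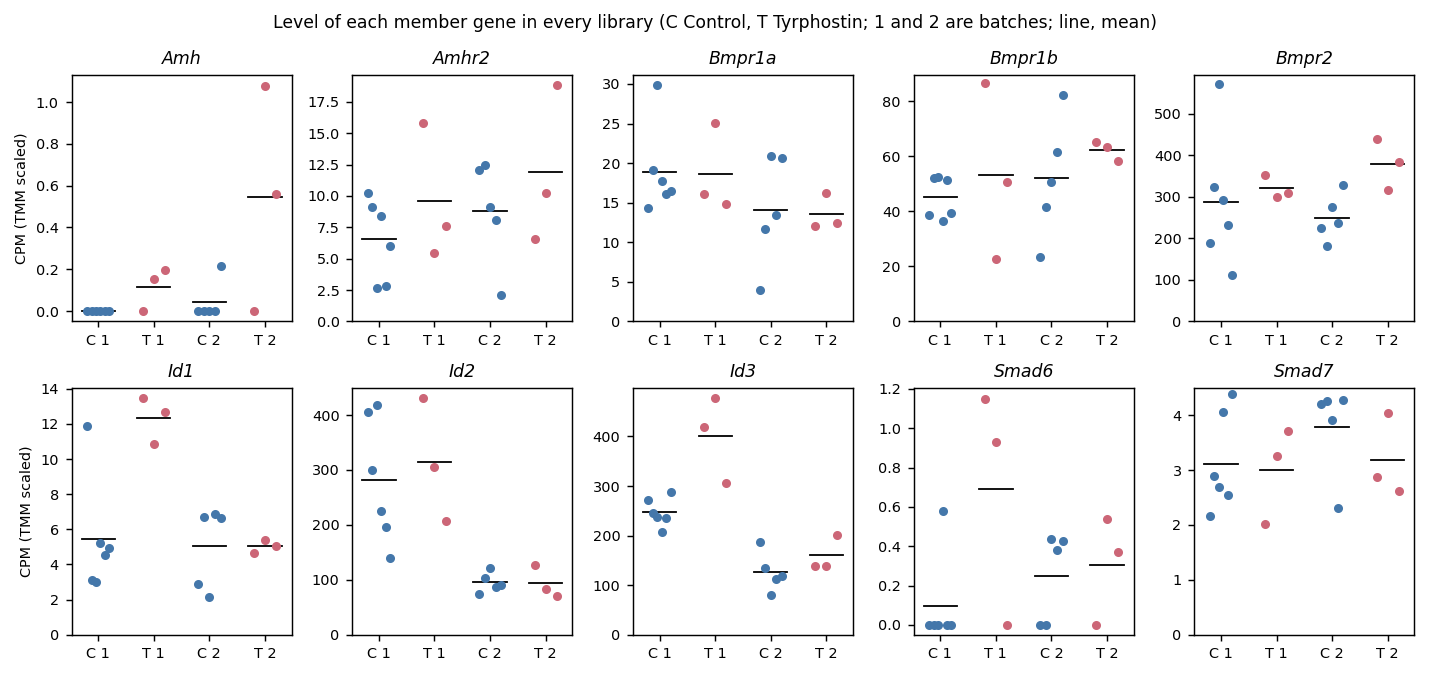
Level of the 10 member genes in each library, as TMM-scaled CPM on linear axes, for Control (C, blue) and Tyrphostin (T, red) libraries of batches 1 and 2; each point is 1 library and each line a mean. Id2 and Id3 are lower in batch 2 in both groups, and the 3 Tyrphostin libraries of batch 1 lie above all 6 Control libraries of that batch for Id3.

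The first comparison set Tyrphostin against Control libraries, over the 17 libraries together and with a term for batch. The labels leave unstated if Control follicles had hCG or DMSO, so their effects and that of the inhibitor cannot be told apart here. The words with the inhibitor therefore stand for Tyrphostin against Control libraries. Of the 8 members that passed the filter, 1 was called higher with the inhibitor, Id3, and 0 were called lower (edgeR quasi-likelihood test, adjusted p under 0.05 over all 9603 genes tested). Over all genes 4.35% were called higher and 6.25% lower, 10.6% in either direction. Positive log2 fold changes numbered 6 and negative ones 2, with a median of 0.32 against 5.42e-05 over all genes. At an unadjusted p under 0.05 the count was also 1, or 12.5% of the 8, against 23.7% of all genes tested. The called share of members, 1 of 8, is near that of the table. Within batch 1, 0 of 8 members were called, against 6.73% of genes (2.94% higher and 3.79% lower), and 2 had an unadjusted p under 0.05, as did 21.2% of genes. Within batch 2, 0 of 8 were called, against 0.621% (0.193% higher and 0.427% lower), and 1 had an unadjusted p under 0.05, as did 10.7% of genes. These fits use subsets of the same libraries. Fold changes are relative to the TMM scale; under scaling to total counts the median of all genes moved to 0.15, and Bmpr1a and Smad7 turned positive. Amh and Smad6 did not pass the filter, which needs about 10 counts in enough libraries.

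The ligand gene Amh (chromosome 10, 80805243 to 80807648, GRCm38) was at or near 0. It had 0 counts in 10 of 11 Control libraries and 1 count in Control 11. Among Tyrphostin libraries it had 0 in Tyrphostin 1 and Tyrphostin 4, 1 in Tyrphostin 2 and Tyrphostin 3, 4 in Tyrphostin 5 and 3 in Tyrphostin 6. The highest level, 1.08 CPM, came from those 4 counts, and a floor of 3 counts corresponds to 0.336 to 1.64 CPM in Control and 0.412 to 0.809 CPM in Tyrphostin libraries. The 10 counts in the whole series thus put both groups at the limit of this depth, and no fold is given. An exact two-sided permutation test of CPM within batches gave p = 0.0179 over 4704 arrangements, not adjusted, and p from 0.00397 to 0.0476 with each Tyrphostin library left out in turn. In the edgeR test with no filter on low counts, Amh had an unadjusted p of 0.011 and an adjusted p of 0.149, so it did not pass the threshold.

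The AMH type II receptor gene Amhr2 (chromosome 15, 102445367 to 102454633) ran from 2.13 through a median of 8.41 to 12.4 CPM in Control and from 5.44 through 8.93 to 18.8 CPM in Tyrphostin libraries. The groups overlapped, with 2 of 6 Tyrphostin libraries, Tyrphostin 1 and Tyrphostin 6, above every Control library. The log2 fold change was 0.49 ± 0.34 (95% interval -0.22 to 1.19; edgeR adjusted p = 0.415). Without Tyrphostin 1 it was 0.24. Amhr2 counts were 9 to 111 per library.

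Bmpr2 (chromosome 1, 59763400 to 59879014), the type II receptor of BMPs, was the most abundant receptor member. It ran from 112 through 238 to 572 CPM in Control and from 299 through 335 to 440 CPM in Tyrphostin libraries. The Tyrphostin libraries lay inside the Control range, since Control 3 was at 572 CPM. The log2 fold change was 0.38 ± 0.24 (95% interval -0.11 to 0.87; edgeR adjusted p = 0.353). Within batch 2, 2 of 3 Tyrphostin libraries exceeded every Control library. The share of genes with at least 2 above was not counted, and it cannot be under the 4.22% that had all 3 above. The batch 2 log2 fold change was 0.61 ± 0.25 (edgeR adjusted p = 0.396), against 0.17 ± 0.36 in batch 1.

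Neither type I receptor gene was called. Bmpr1b (chromosome 3, 141837136 to 142169425), known for its role in the response of granulosa cells to BMP15, averaged 48.2 ± 15.4 CPM in Control against 57.8 ± 20.9 CPM in Tyrphostin libraries. For Bmpr1b the log2 fold change was 0.25 ± 0.23 (95% interval -0.23 to 0.73; edgeR adjusted p = 0.573), with Tyrphostin 1 above and Tyrphostin 2 below every Control library, and it was 0.022 without the former and 0.42 without the latter. Bmpr1a (chromosome 14, 34410734 to 34503341), the type I receptor that AMH also uses, averaged 16.7 ± 6.48 and 16.1 ± 4.70 CPM. For Bmpr1a the log2 fold change was -0.03 ± 0.25 (95% interval -0.55 to 0.48; edgeR adjusted p = 0.955), and 0 of 6 Tyrphostin libraries lay outside the Control range. An exon of Bmpr1a overlaps Gm17110 on the other strand, and the Smart-Seq2 libraries do not mark strand, so reads of the pair cannot be told apart there.

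Id3 (chromosome 4, 136143497 to 136145755), an E-protein inhibitor, was the member called higher, with an adjusted p next to the threshold. In batch 1 it stood at 418, 478 and 307 CPM in Tyrphostin 1, 2 and 3, against 207 through a median of 241 to 288 CPM in 6 Control libraries. In batch 2 it stood at 139, 139 and 202 CPM in Tyrphostin 4, 5 and 6, against 80.8, 112, 118, 134 and 186 CPM in the 5 Control libraries. The groups were apart in batch 1, where every Tyrphostin library exceeded every Control library, as in 5% of genes, and they overlapped in batch 2. Over all libraries the log2 fold change was 0.53 ± 0.17 (95% interval 0.17 to 0.88; edgeR adjusted p = 0.0493). The batch 1 libraries alone gave 0.70 ± 0.21 (edgeR adjusted p = 0.0557), those of batch 2 gave 0.35 ± 0.28 (edgeR adjusted p = 0.756), and the interaction between treatment and batch had an unadjusted p of 0.318. Without Tyrphostin 6 the batch 2 value was 0.15 (edgeR adjusted p = 0.957). The batch 1 difference of Id3 passed the threshold in 3 of 5 alternatives: upper-quartile scaling, total-count scaling and no filter (edgeR adjusted p = 0.047, 0.0202 and 0.0394). With 1 library left out it passed in 2 of 9 fits, with edgeR adjusted p from 0.0326 (without Tyrphostin 3) to 0.208 (without Tyrphostin 2).

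The Id3 call lay at the threshold. Its log2 fold change was positive in all 14 alternative analyses and all 17 fits that left out 1 library, from 0.44 to 0.70. The adjusted p was under 0.05 in 8 of the 14 and in 6 of the 17. The call ended without Control 1, 2, 3, 4, 5, 9, 10 or 11 and without Tyrphostin 1, 2 or 6, with edgeR adjusted p up to 0.152 (without Tyrphostin 2). With the Control libraries of each set summed to 1 library the adjusted p was 0.0977. Without Control 6, Control 7 and Tyrphostin 5 together, an alternative chosen after seeing the data, it was 0.00521, with a log2 fold change of 0.70. That alternative is counted in the 14 and in the 8.

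**Figure D2:**
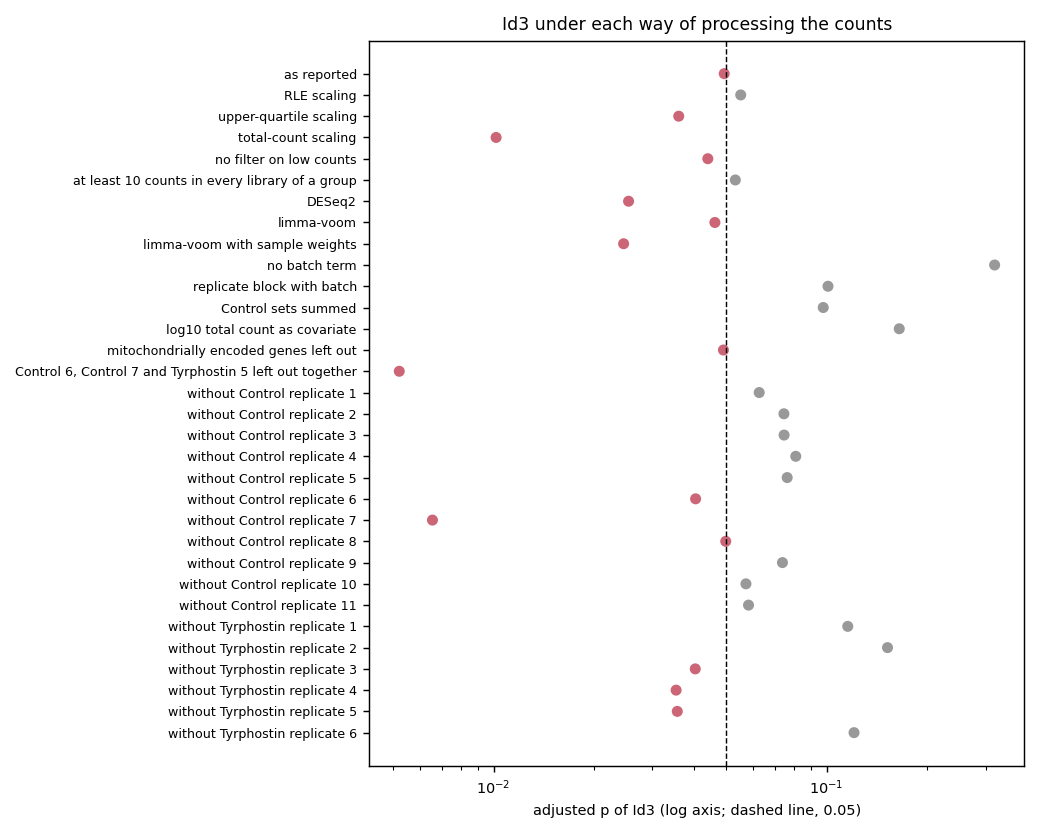
Adjusted p of Id3 for Tyrphostin against Control under each way of processing the counts (log axis; dashed line at 0.05; red, under 0.05; grey, at or above it). The value as reported, 0.0493, lies next to the line, and values run from 0.00521 to 0.319 with no batch term.

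Id1 (chromosome 2, 152736251 to 152737410), an ID gene widely used as a readout of BMP signalling, had low counts of 5 to 94 per library. In batch 1 it stood at 13.5, 10.9 and 12.7 CPM in Tyrphostin 1, 2 and 3, against 2.99 through 4.72 to 11.9 CPM in Control libraries. Only Control 1, at 11.9 CPM, reached the Tyrphostin values of that batch. In batch 2 it stood at 4.66, 5.39 and 5.04 CPM in Tyrphostin 4, 5 and 6, inside the Control range of 2.17 to 6.90 CPM. The log2 fold change was 0.62 ± 0.30 over all libraries (95% interval -0.0049 to 1.24; edgeR adjusted p = 0.215). It was 1.18 ± 0.37 within batch 1 (edgeR adjusted p = 0.0613) and -0.07 ± 0.40 within batch 2 (edgeR adjusted p = 0.975). Under scaling to total counts and with no filter, 2 of 5 alternatives, the batch 1 difference of Id1 was called (edgeR adjusted p = 0.0297 and 0.00858). With 1 library left out this difference was called in 1 of 9 fits, without Control 1 (edgeR adjusted p = 0.00473). In the other fits edgeR adjusted p reached 0.16. The difference between the batches, -1.25 ± 0.57, had an unadjusted interaction p of 0.0382 and an adjusted p of 1, so it was not called, and by edgeR 0 genes were called in the interaction.

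Id2 (chromosome 12, 25093799 to 25097140), the ID gene second in level, showed no call. It ran from 74.3 through 140 to 418 CPM in Control and from 69.8 through 167 to 431 CPM in Tyrphostin libraries. The ranges coincide almost end to end, and in both groups the libraries of batch 1 are the high ones. The log2 fold change was 0.07 ± 0.22 (95% interval -0.38 to 0.53; edgeR adjusted p = 0.887).

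Of the inhibitory SMAD genes, Smad7 averaged 3.42 ± 0.897 CPM in Control against 3.09 ± 0.743 CPM in Tyrphostin libraries, from 8 to 38 counts per library. For Smad7 the log2 fold change was -0.15 ± 0.26 (95% interval -0.69 to 0.38; edgeR adjusted p = 0.784). Smad6 (chromosome 9, 63953076 to 64022059) had 0 counts in 7 of 11 Control and 2 of 6 Tyrphostin libraries. Its highest counts were 2 in Control and 8 in Tyrphostin libraries, the latter in Tyrphostin 1, followed by 6 in Tyrphostin 2. An exact two-sided permutation test of CPM within batches gave p = 0.0784 over 4704 arrangements, not adjusted, and p from 0.0153 (without Tyrphostin 3) to 0.251 (without Tyrphostin 1) with each Tyrphostin library left out in turn. The edgeR test with no filter gave an adjusted p of 0.443, so Smad6 was not called.

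**Figure D3:**
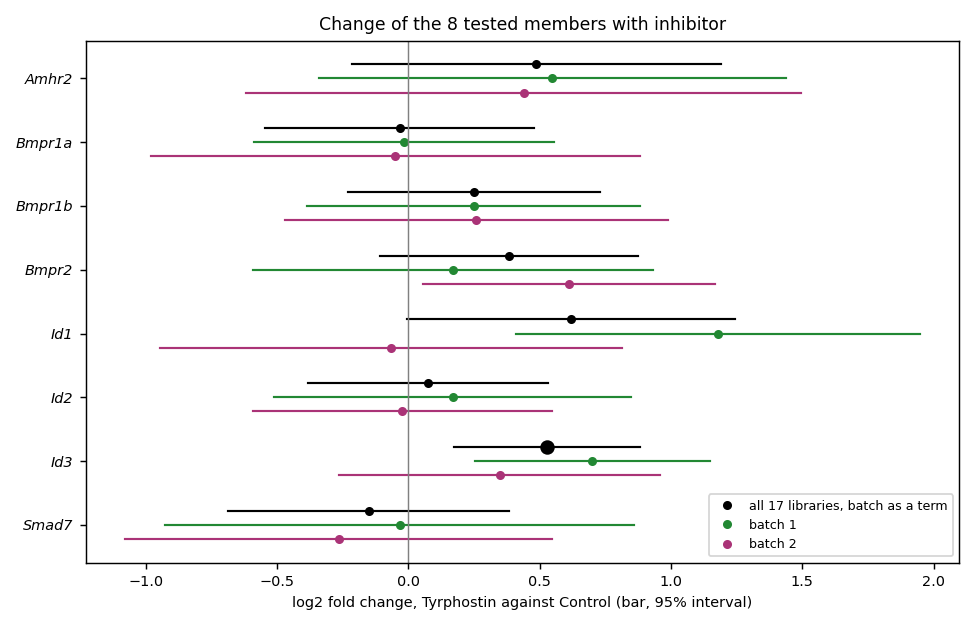
Log2 fold change of the 8 tested members, Tyrphostin against Control, with 95% intervals, over all 17 libraries (black) and within each batch (green and purple); the larger point marks the call, Id3 at 0.53. Intervals of the other members over all libraries reach 0, and Id1 is at 1.18 in batch 1 and -0.07 in batch 2.

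The second comparison asked how the members differ between the labelled batches. Id2 and Id3 were lower in batch 2 than in batch 1 in Control follicles, and Id1, Id2 and Id3 were lower in batch 2 in Tyrphostin follicles, while Bmpr1a, Bmpr1b and Bmpr2 showed no call in either group. Amh and Smad6 passed the filter in neither group, and Amhr2, Id1 and Smad7 did not pass it in Control. The groups share no libraries. Among 5 members tested in the Control libraries, 2 were called lower, against 6.77% of 6680 genes (7.26% higher, 14% in either direction). Among 8 tested in the Tyrphostin libraries, a comparison added after the Control result was seen, 3 were called lower, against 2.14% of 8189 genes (2.31% higher, 4.44% in either direction).

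For Id2, Control libraries averaged 281 ± 114 CPM (n = 6) in batch 1 and 95.4 ± 18.0 CPM (n = 5) in batch 2. All 5 batch 2 libraries lay below every batch 1 library, as in 3.82% of genes, and the log2 difference was -1.53 ± 0.28 (edgeR adjusted p = 0.00215). Tyrphostin libraries averaged 315 ± 112 and 93.7 ± 29.9 CPM (n = 3 each), a log2 difference of -1.72 ± 0.33 (edgeR adjusted p = 0.0145). The Id2 values of the batch 1 Control sets were picked out after they were seen and were not tested. Control 1, 2 and 3 stood at 406, 300 and 418 CPM, and Control 4, 5 and 6 at 226, 195 and 140 CPM. How many genes split in this way between the sets was not counted. Without Tyrphostin 5 the adjusted p of the Tyrphostin difference was 0.0701.

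For Id3, Control libraries averaged 248 ± 28.6 CPM (n = 6) in batch 1 and 126 ± 38.8 CPM (n = 5) in batch 2, a log2 difference of -0.95 ± 0.21 (edgeR adjusted p = 0.00693). Here too all 5 batch 2 libraries were below every batch 1 library. Tyrphostin libraries averaged 401 ± 87.1 and 160 ± 36.3 CPM (n = 3 each), a log2 difference of -1.31 ± 0.29 (edgeR adjusted p = 0.0251), which lost its call without Tyrphostin 1, 4 or 5 (adjusted p up to 0.123). With Control libraries summed by set, which leaves 2 sets against 3, the Control differences kept their direction but not the call, with adjusted p of 0.0638 for Id2 and 0.113 for Id3.

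Id1 did not pass the filter among Control libraries, where it averaged 5.44 ± 3.28 CPM (n = 6) in batch 1 and 5.06 ± 2.33 CPM (n = 5) in batch 2. Among Tyrphostin libraries it averaged 12.3 ± 1.34 and 5.03 ± 0.363 CPM (n = 3 each), and all 3 batch 2 libraries were below every batch 1 library, as in 11.7% of genes. The log2 difference was -1.28 ± 0.31 (edgeR adjusted p = 0.0359), and the call ended without Tyrphostin 1, 3, 4, 5 or 6, with adjusted p up to 0.136, and with total-count scaling (0.0712).

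The summed level of 5 cumulus markers, mostly Tnfaip6, was lower in batch 2 with no overlap: 6658 to 13271 against 3608 to 5663 CPM in Control and 1643 to 2757 against 503 to 1041 CPM in Tyrphostin libraries. Of 4 tested, 1 was called lower in Control and 2 in Tyrphostin libraries (Tnfaip6 in both and Has2 in Tyrphostin). The mitochondrial share of counts was 1.86% to 2.83% in batch 1 and 0.175% to 1.94% in batch 2 Control libraries, and 1.55% to 2.50% against 0.781% to 1.32% in Tyrphostin libraries. The summed level of 8 theca and stroma markers was 262 to 755 CPM in batch 1 and 433 to 2136 CPM in batch 2 Control libraries, and 272 to 414 against 806 to 3054 CPM in Tyrphostin libraries. That of 6 endothelial markers was 12.2 to 91.7 against 8.54 to 22.2 CPM in Control and 17.4 to 34.5 against 8.77 to 17.8 CPM in Tyrphostin libraries. The 8 oocyte markers reached 44.0 CPM in batch 1 and 76.9 CPM in batch 2 Control libraries, 32.5 and 205 CPM in Tyrphostin libraries, and 1 of them was at 0 in every batch 2 Control library. The 6 immune markers reached 61.7 and 462 CPM in Control and 52.7 and 855 CPM in Tyrphostin libraries. Of markers tested in Control libraries, 2 of 7 theca and stroma, 1 of 5 granulosa and 1 of 2 immune markers were called higher. There 1 theca and stroma marker was called lower. In Tyrphostin libraries 4 of 7 theca and stroma and 1 of 3 oocyte markers were called higher. The 1 endothelial marker tested there was called lower. Over all genes 7.26% were called higher and 6.77% lower in Control libraries, and 2.31% higher and 2.14% lower in Tyrphostin libraries. In bulk samples fewer cells of a type and less RNA per cell cannot be told apart, and the part of these markers and of the mitochondrial share in the ID differences was not tested.

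**Figure D4:**
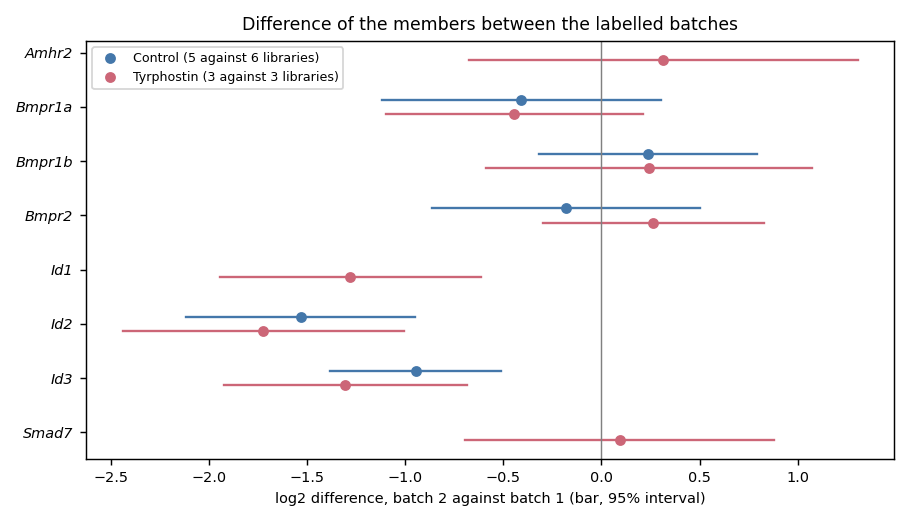
Log2 difference of the tested members between batch 2 and batch 1 with 95% intervals, in Control libraries (blue) and Tyrphostin libraries (red). The tested ID genes, Id2 and Id3 in both groups and Id1 in Tyrphostin libraries only, lie between -1.72 and -0.95. The intervals of the receptor genes and Smad7 include 0, with Amhr2 and Smad7 tested in Tyrphostin libraries only.

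The other genes of the pathway were then read from 6 lists with 56 genes, of which 40 were tested with the inhibitor. Of these, 2 were called higher (Twsg1 and Tob1) and 4 lower (Fstl3, Rgmb, Bambi and Fkbp1a), and 11 had an unadjusted p under 0.05, or 27.5% against 23.7% of all genes. The calls are 6 of 40, beside 10.6% of all genes, with 15 positive and 25 negative fold changes and a median of -0.13. The calls of Twsg1, Rgmb, Bambi and Fkbp1a also ended with no batch term and with Control sets summed, where edgeR adjusted p was 0.119, 0.0629, 0.0828 and 0.0626. Those of Rgmb and Bambi ended as well under scaling to total counts (0.0934 and 0.097), and those of Rgmb and Fkbp1a with no filter (0.0915 and 0.0759). With log10 total count as a covariate those of Twsg1, Rgmb and Fkbp1a ended (0.0745, 0.115 and 0.0542), with upper-quartile scaling that of Rgmb (0.0552) and with weighted limma-voom that of Twsg1 (0.0671).

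Extracellular antagonists held 2 of the 6 calls, and the median over the 7 tested was 0.69 on the log2 scale. Twsg1, which encodes a BMP-binding protein that can raise or lower signalling, rose from 65.1 ± 21.3 to 106 ± 31.0 CPM. Its log2 fold change of 0.71 ± 0.22 (edgeR adjusted p = 0.039) lost its call without Control 1, 4, 5, 6 or 8 or Tyrphostin 1, 2, 3 or 6, with adjusted p up to 0.167. Fstl3, a follistatin-like gene whose protein binds activin more than BMPs, fell from 4.63 ± 2.48 to 1.51 ± 0.456 CPM, a log2 fold change of -1.57 ± 0.36 (edgeR adjusted p = 0.00622) at no more than 35 counts in a library. Of the other 5 tested, Bmper and Fst had the highest level, with log2 fold changes of -0.32 ± 0.23 and 1.05 ± 1.02, neither called. Fst, the follistatin gene, averaged 292 ± 397 CPM in Control (n = 6) and 1671 ± 1713 CPM in Tyrphostin (n = 3) libraries of batch 1, and 138 ± 167 (n = 5) and 49.8 ± 15 CPM (n = 3) in batch 2. Its log2 fold change was 0.008 without Tyrphostin 3 and 1.73 without Control 3.

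Among other receptors and co-receptors, 2 of 9 tested were called, both lower, and the median was 0.0045. Bambi, a decoy receptor gene and itself a target of BMP signalling, went from 42.9 ± 12.4 to 26.8 ± 11.0 CPM, a log2 fold change of -0.72 ± 0.21 (edgeR adjusted p = 0.0272). It lost the call without Tyrphostin 5 or 6, with adjusted p up to 0.0843. Rgmb, a BMP co-receptor gene, went from 58.4 ± 26.2 to 32.7 ± 16.0 CPM, a log2 fold change of -0.85 ± 0.27 (edgeR adjusted p = 0.0465). Its call ended without Control 2, 3, 4, 5, 8 or 9 or Tyrphostin 1, 2, 5 or 6, with adjusted p up to 0.128. Both kept their direction in each batch, at -0.40 and -1.07 for Bambi and -0.64 and -1.08 for Rgmb on the log2 scale. Tgfbr1 and Tgfbr2, receptors of TGF-beta, had log2 fold changes of -0.23 ± 0.34 and 0.0045 ± 0.21.

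Of the ligand genes 5 were tested and 0 were called by edgeR, with 1 at an unadjusted p under 0.05, Bmp6, which was named after its values were seen. Medians were -0.09 for ligands, -0.24 for SMADs, -0.17 for SMAD modulators and -0.30 for other reported targets. Bmp3 and Bmp2, the most abundant, had log2 fold changes of -0.40 ± 0.31 and 0.23 ± 0.28. Among SMADs 0 of 5 were called by edgeR and 2 had an unadjusted p under 0.05. Smad3, at -0.51 ± 0.18 (edgeR adjusted p = 0.0832), was 1 of these. Smad2, at -0.24 ± 0.20 (edgeR unadjusted p = 0.249), was not. Of 11 SMAD modulators, Tob1, which encodes an antiproliferative protein that binds SMADs, rose from 11.6 ± 4.72 to 25.1 ± 6.74 CPM. For Tob1 the log2 fold change was 1.10 ± 0.26 (edgeR adjusted p = 0.00831), and 6 of 6 Tyrphostin libraries, from 18.3 to 37.3 CPM, exceeded every Control library, the highest of which was at 18.2 CPM. Every Tyrphostin library lay above every Control library in 0.51% of genes. Fkbp1a, whose protein holds type I receptors inactive, fell from 974 ± 233 to 642 ± 138 CPM, a log2 fold change of -0.61 ± 0.17 (edgeR adjusted p = 0.0243). It lost the call without Tyrphostin 1, 3 or 5, with adjusted p up to 0.0769. Skil and Tgif1, the most abundant uncalled modulators, were at -0.57 ± 0.24 and -0.17 ± 0.17 on the log2 scale. Of 3 other reported BMP targets tested, Msx1, Hes1 and Hey1, 0 were called by edgeR and 0 had an unadjusted p under 0.05.

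Cumulus markers moved with the inhibitor too: the summed level of 5 such genes was 3608 to 13271 CPM in Control and 503 to 2757 CPM in Tyrphostin libraries, and 3 of 4 tested, Ptx3, Tnfaip6 and Has2, were called lower. The other, Npr2, had a log2 fold change of 0.45 ± 0.17 (edgeR adjusted p = 0.0915). Ptx3, Tnfaip6 and Has2 are genes that the ovulatory signal raises, so they read the response as well as the cells, and their part in the changes of pathway genes was not tested. Of 5 granulosa markers tested, 2 were called higher: Cyp19a1, the aromatase gene, with a log2 fold change of 2.35 ± 0.22, and Fshr, the FSH receptor gene, with 0.83 ± 0.25. The other 3 were not called and had negative log2 fold changes, the lowest at -0.11, and the median of the 5 was -0.05. Over all genes 4.35% were called higher and 6.25% lower. Oocyte, theca and stroma, endothelial and immune lists had 0 genes called by edgeR over all libraries, of 6, 7, 2 and 2 tested, and 1, 0, 1 and 0 at an unadjusted p under 0.05. Within batch 1, 2 of 7 theca and stroma markers, Col1a1 and Col1a2, were called lower and the median was -0.97, with 6 of 7 negative. Within batch 2, 0 of 7 were called by edgeR, 1 had an unadjusted p under 0.05, and the median was 0.88, with 7 of 7 positive.

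**Figure D5:**
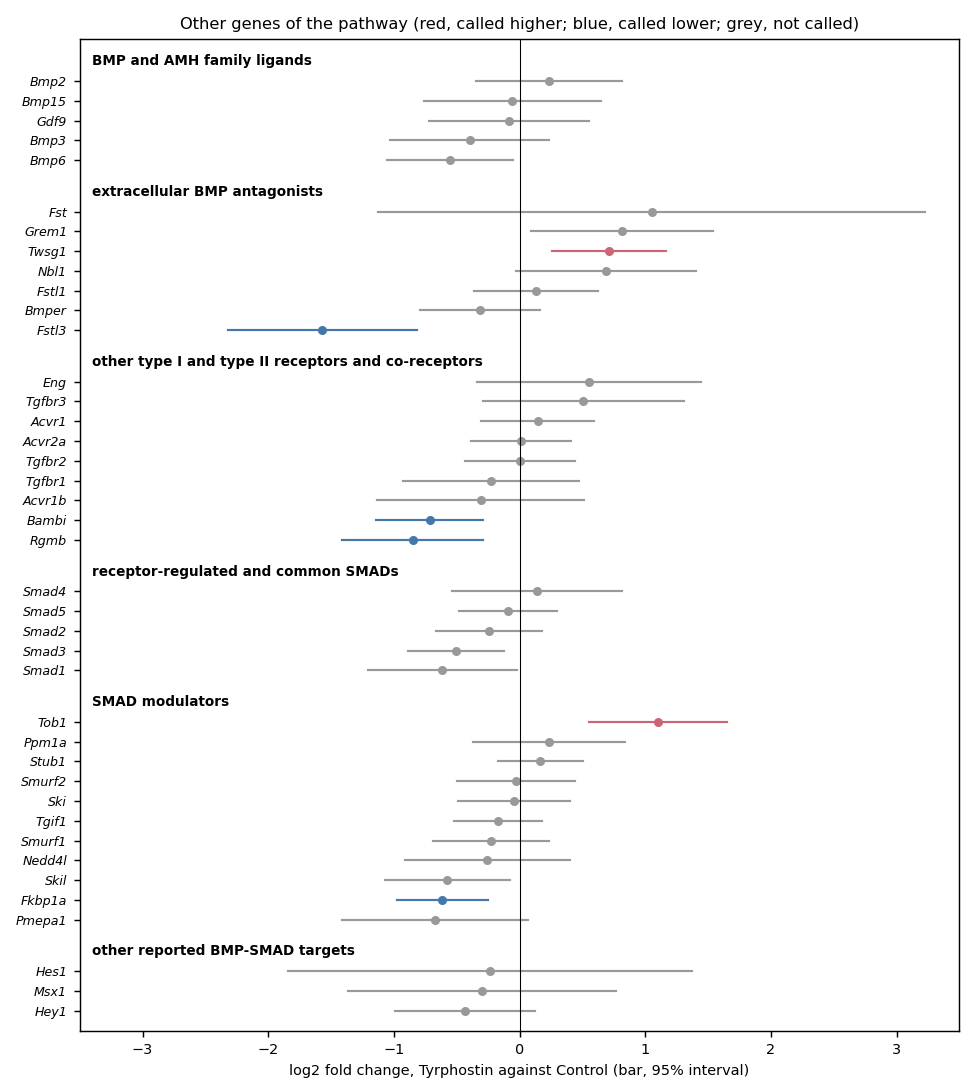
Log2 fold change with 95% interval of the 40 tested genes of 6 pathway lists, Tyrphostin against Control with batch as a term (red, called higher; blue, called lower; grey, not called). Tob1 at 1.10 stands highest among the calls, and Fstl3 at -1.57 stands lowest.

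The profile of Id3 over 17 libraries, as log2 CPM centred within batch and scaled to an SD of 1, was most like those of Timm17b, Atp5c1 and Uck1. The root-mean-square differences from Id3 were 0.323, 0.394 and 0.398 SD, against a median of 1.37 SD over all genes tested. The profiles share libraries and depth, and this likeness is a description. Centring within batch leaves the difference between the groups in each profile, so genes picked as closest to Id3 share its direction by construction. With the inhibitor the log2 fold changes of Timm17b, Atp5c1 and Uck1 were 0.73 ± 0.19, 0.64 ± 0.17 and 0.64 ± 0.20.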

How the data were processed

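The deposited values are raw counts, whole numbers for 25198 gene symbols in 17 libraries, and 3576 genes had no count. Smart-Seq2 libraries, which carry no molecular identifiers, were prepared from bead-purified RNA, per the labels' protocols. STAR, HTSeq and build GRCm38 are named in the submitters' processing notes, with no version, annotation or strand setting. Columns were matched to samples by the names in the labels. Floors cover counting error alone, because reads that PCR copied are not separate molecules. The 31 library pairs within a group and batch were too far apart to be copies, with chi-square/df from 11.8 to 84.1.

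The main test was that of edgeR 4.0.16, run in R 4.3.3 (filterByExpr, TMM, estimateDisp, robust glmQLFit, quasi-likelihood F test, Benjamini-Hochberg over all genes tested, threshold 0.05), over the 17 libraries with a batch term, within each batch, as an interaction, and between batches within each group. The standard error is the log2 fold change divided by the square root of F, and log2 CPM used a prior count of 2. Members below the filter were tested by exact permutation. Exon lengths and positions came from GENCODE M21 (GRCm38) and start sites from RefSeq (GRCm38.p6). DESeq2 1.42.0, limma-voom (limma 3.58.1), other scalings, filters, covariates and left-out libraries were alternatives. The main edgeR fit was run on simulated counts with no batch effect, for every comparison except that between batches in Tyrphostin libraries. The alternatives and the permutation test were not run on simulated counts.

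The members, 6 pathway lists and 6 marker lists were chosen with earlier results of these data known. Named were all members, each called gene of a pathway list and its 2 most abundant uncalled genes, and the 3 profiles closest to each called member. A gene of a pathway list is not reported here and was left out of the list counts.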

Additional observations from a re-analysis of the deposited data

Results flagged for a closer look

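Each member was searched in Control batch 1, Control batch 2 and the 6 Tyrphostin libraries for a library far from the rest on the log2 CPM scale. This made 29 groups with at least 1 count, and 4 had such a library. Chance alone marks about 1 group in 20, and for Amh and Smad6 the other libraries were all at 0, so that any count stands apart by construction.

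Amhr2 was at 2.13 CPM (10 counts) in Control 11, against 8.05 to 12.4 CPM in the other Control libraries of batch 2. Smad7 was at 2.30 CPM (12 counts) in Control 10, against 3.91 to 4.27 CPM in the others of that batch. Amh was at 0.213 CPM in Control 11, from 1 count, with 0 in the other 4. Smad6 was at 0.580 CPM in Control 4, from 2 counts, with 0 in the other 5 of batch 1.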

How the results depend on the processing

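The 7 genes called with the inhibitor and named here, Id3 and 6 pathway genes, kept their direction in all 216 values recomputed. Over 41 gene and comparison pairs, 370 of 439 values under other settings kept their direction and side of the threshold, as did 507 of 584 with 1 library left out; 32 and 44 lost a call, 8 and 5 gained one, and 29 and 28 changed sign. Causes were not tested unless named.

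The count of genes called with the inhibitor, 1018, was 619 with no batch term and 678 with log10 total count as a covariate, and ran from 708 to 1314 with 1 library left out. The count of members called, 1, was 0 with RLE scaling, with at least 10 counts in every library of a group, with no batch term, with Control sets summed and with log10 total count as a covariate, and 0 to 1 with 1 library left out. Within batch 1 the count, 634, ran from 394 (without Tyrphostin 2) to 687. Within batch 2 it was 61, 222 with no filter on low counts, and 11 (without Tyrphostin 6) to 221 (without Control 7) with 1 library left out. The interaction gave 0, and 79 with no filter. Between batches, Control libraries gave 937 genes and 100 with sets summed, which leaves 5 sums, and Tyrphostin libraries gave 364, 872 with no filter and 112 to 450 with 1 library left out. With total-count scaling 64.4% of calls with the inhibitor were higher, against 41.1% with TMM, with 63.5% against 43.7% within batch 1, 47.3% against 31.1% within batch 2, and 75.7% against 51.8% (Control) and 66.7% against 51.9% (Tyrphostin) between batches.

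The numbers 1 to 6 occur in the titles of both groups. The check of pairing by title number, on deviations from group means, gave r of 0.47, 0.31, 0.38, 0.01, -0.13 and -0.06. In it 5 of the 6 Tyrphostin libraries correlated best with their own number. Only 3 of the 6 values of r were above 0.1 and title numbers 4 to 6 cross batches, so the numbers were not taken as pairs. The Control sets are numbered 1, 2, 4, 5 and 6. A match of Tyrphostin numbers to these set numbers would stay within batches and was not checked, so pairing of that kind remains unknown. By its construction the block leaves the treatment effect to numbers 1 to 3, all in batch 1, since numbers 4 to 6 set the batch term and Control 7 to 11 have no partner. With the replicate number as a block and batch as a term the count was 636, with 0 members called, and the log2 fold changes that changed sign were -0.023 for Bmpr1b, -0.037 for Bmpr2, -0.29 for Id2, 0.18 for Smad7, -0.046 for Bmp2, -0.27 for Tgfbr2, 0.35 for Msx1 and 0.31 for Hes1; Twsg1, Fstl3, Rgmb, Bambi, Tob1 and Fkbp1a were not called under this block, and Fst was called (1.83, adjusted p = 0.000413).

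The other sign changes were in genes that were not called. Bmpr1a, at -0.03, was 0.11 with total-count scaling, 0.0022 with no filter, 0.051 with limma-voom and 0.047 with log10 total count. Smad7 was 0.0068 with total-count scaling. Id2 was -0.11 with log10 total count, and within batch 2 it was 0.014 with upper-quartile and 0.10 with total-count scaling, where Id1 was 0.019. Tgfbr2, at 0.0045, was -0.0017 with RLE, -0.018 with at least 10 counts, -0.0016 with DESeq2, -0.068 and -0.095 with limma-voom without and with sample weights, -0.0097 with no batch term and -0.15 without Control 6, Control 7 and Tyrphostin 5. Hes1 was 0.61 and 0.30 with limma-voom without and with weights, 0.14 with no batch term and 0.15 with log10 total count. Fst was -0.19 with Control sets summed. With 1 library left out the ranges that crossed 0 were -0.16 to 0.055 for Bmpr1a, -0.072 to 0.17 for Id2, -0.018 to 0.38 for Bmp2, -0.21 to 0.14 for Tgfbr2, -0.57 to 0.0031 for Msx1 and -0.72 to 0.14 for Hes1, and within batches -0.12 to 0.40 for Id2 in batch 1, -0.31 to 0.15 for Id2 in batch 2 and -0.22 to 0.065 for Id1 in batch 2.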
